A study of Oryza sativa with 6 samples.

Results

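Heat shock proteins and chaperones were followed in leaves of young Minghui63 seedlings, an indica rice, in plants with and without a hairpin construct against OsSRT1. Members were the genes whose symbol or synonym in a reference gene table starts with HSP, HSC70, CLPB, CPN60, DNAJ or BIP plus digits. Another 2 genes with such a name were left out because they also carry heat shock factor names. This gave 40 genes, 35 of them with a probe set among the 17905 annotated genes of the array, and 31 of the 35 passed the filter on low signal and were tested. The 40 comprised 22 small heat shock proteins (19 with a probe set), 4 genes of the HSP70 class, all BiP (2 with a probe set), 3 HSP90 genes, 3 HSP100 genes and 8 genes with names of the form bip103. No gene with an HSC70, CPN60 or DNAJ name was found in the table, so the cytosolic HSP70 proteins and most J-domain partners are not described here.

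The arrays were Affymetrix rice genome arrays, which measure a transcript through a group of short oligonucleotides, its probe set. The control group was untransformed Minghui63 (3 arrays). The RNAi group carried an inverted repeat of OsSRT1, a sirtuin deacetylase, taken from the 3' end of the transcript (412 bp of its UTR). Its titles read transgenic line LM1, LM2 or LM3 (1 array each, called RNAi replicates 1 to 3). The titles do not say outright whether LM1 to LM3 are separate transformants. Seedlings of both groups grew at 25°C under 16 h light and 8 h dark and were sampled at 11 days, before lesions appear in the RNAi plants, so no heat treatment was part of the design. OsSRT1 has no named probe set in the annotation used here and was not analysed here, so its knockdown was not checked.

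Heat shock proteins are molecular chaperones that keep other proteins from aggregating and help them fold. Small heat shock proteins hold unfolding proteins without using ATP, HSP70 and HSP90 fold and mature them in ATP-driven cycles, and HSP100 (ClpB) pulls aggregates apart. In plants their genes are switched on strongly by heat through heat shock factors, and some are also expressed during development and other stresses.

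Each array was scaled to a common trimmed mean of 500, and signals below are on that scale. Differences are given as log2 fold changes of signal plus 16, RNAi minus control, with the standard error (SE) and the adjusted p of limma over all 28597 tested probe sets. The submitters name 3 biological repeats a group, but how plants were divided among the arrays is not described in the labels. The p-values therefore reflect only how far these samples scatter, part of which may be technical. Signals of different probe sets are not on a common scale. Apart from the marker sums below and the choice of 1 probe set per gene, they are not set against each other. Leaf markers matched the label: 5 of 6 markers of photosynthesis with a probe set passed the filter, with a summed signal of 146958 to 171164 in control and 129037 to 158955 in RNAi arrays, and none was called. RNAi replicate 1 was the lowest of the 6 arrays at CAB2R, RCABP89 and RCABP69 (18862, 25882 and 12044), but not at rca or RBCS. Of 9 seed storage and seed allergen markers 2 passed the filter (sums of 1459 to 1626 and of 1419 to 1597), of 3 root markers 1 did (73.8 to 146 and 57.5 to 146), and the anther marker RTS was at most 10.7 in every array. Most of the seed sum came from the glutelin gene GLUA-2, at 1243 to 1437 in the control and 1244 to 1429 in the RNAi arrays. The 3'-to-5' signal ratio of actin, a measure of RNA integrity, was 6.68 to 9.02 in the control and 3.98 to 5.85 in the RNAi arrays, that of GAPDH 2.06 to 2.45 and 1.47 to 2.44. That of ubiquitin was 0.759 to 0.781 in the control and 0.680 to 0.742 in the RNAi arrays. For actin and ubiquitin the groups did not overlap. The part of these ratios in the results was not tested. The array records give the 3 control arrays 1 hybridization entry and the 3 RNAi arrays another. These entries cannot be told apart from the groups. In leaf RNA, fewer cells of a type and less RNA per cell cannot be told apart either.

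In the RNAi leaves HSP17.4 and HSP18.1, small heat shock protein genes, fell, and no member of any class rose. Both encode cytosolic class I small heat shock proteins. Over the whole array 2.1% of tested probe sets passed an adjusted p of 0.05, 1.01% lower and 1.09% higher in the RNAi arrays. Of the 24 tested genes of the 4 size classes, 2 fell and 22 did not pass. At 7 of the 24 the groups did not overlap, as at 22.4% of all tested probe sets. All 7 were lower in the RNAi arrays, where 9.88% of all tested probe sets were lower and 12.5% higher without overlap. The 7 were HSP17.4, HSP18.1, HSP17.9A, HSP18.8, HSP81-1, BIP1 and CLPB-M. The mean was lower in the RNAi arrays at 21 of the 24, against 45.7% of all tested probe sets, and the median log2 fold change was -0.36 against 0.03.

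HSP17.4 (Entrez gene 4332360, also listed as OSHSP17.3) had signals of 1986, 1138 and 932 in control replicates 1 to 3 and of 45.2, 137 and 220 in RNAi replicates 1 to 3. The highest RNAi array was well below the lowest control array. The means were 1352 ± 559 (SD, n = 3) and 134 ± 87.2, a 10.1-fold difference of mean signal and a log2 fold change of -3.32 ± 0.47 (SE; limma adjusted p = 0.00844). Measured from the control mean on the log2 scale, the RNAi arrays were at -4.41, -3.08 and -2.46.

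HSP18.1 (Entrez gene 4332361, also listed as OSHSP18.0) had 2619, 2459 and 1594 in the control arrays and 354, 457 and 727 in the RNAi arrays. The groups again lay apart, and the order of the RNAi arrays was that seen for HSP17.4, with replicate 1 lowest and replicate 3 highest. The log2 fold change was -2.11 ± 0.28 (limma adjusted p = 0.00573), with mean signals 4.34-fold apart. A further probe set of HSP18.1, named as one that reads more than 1 gene, had 1715, 1662 and 911 in control and 371, 423 and 609 in RNAi arrays. It also passed, with a log2 fold change of -1.55 (limma adjusted p = 0.0226).

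HSP17.4 and HSP18.1 lie next to each other in the reference assembly, with 0 annotated genes between them, followed directly by HSP17.7. On the other side lies HSP17.9A, with 4 genes between it and HSP17.4. The neighbours did not pass. HSP17.7 had 603, 302 and 437 in the control and 261, 462 and 359 in the RNAi arrays, so the groups overlapped (a log2 difference of -0.28, 95% interval -0.92 to 0.36, limma adjusted p = 0.674). Its value was -0.047 without control replicate 1 and -0.079 without RNAi replicate 1. HSP17.9A had 4062, 4497 and 3010 in the control and 554, 2406 and 2946 in the RNAi arrays. All 3 RNAi values were below the control values, but RNAi replicate 3 was close to control replicate 3 and RNAi replicate 1 was far below the rest (log2 fold change -1.26 ± 0.52, limma adjusted p = 0.292). Without RNAi replicate 1 the value for HSP17.9A was -0.51. Genes of this class are close relatives of each other, and how far one gene's probes also read another was not tested.

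**Figure D1:**
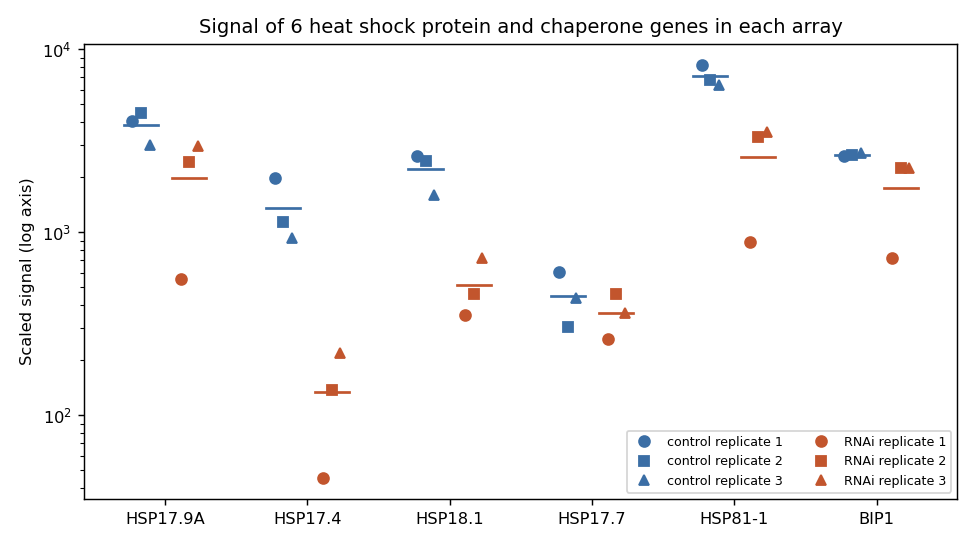
Scaled signal (log axis) of HSP17.9A, HSP17.4, HSP18.1 and HSP17.7, which lie close together in the assembly, and of HSP81-1 and BIP1; each point is 1 array, colour gives the group, shape the replicate number, and horizontal lines are group means. For HSP17.4 the RNAi arrays (45.2 to 220) lie below the control arrays (932 to 1986), while for BIP1 RNAi replicate 1 (721) lies apart from the other RNAi arrays (2254 and 2245).

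A second run of neighbouring small heat shock protein genes showed no call. In order they are HSP16.6, HSP17.9B, HSP16.9C, HSP16.9A and HSP16.9B, of which HSP16.9C has no probe set. HSP17.9B had 6052, 6911 and 7280 in the control and 6619, 6142 and 7456 in the RNAi arrays, with full overlap and a 95% interval of the log2 difference from -0.26 to 0.26. HSP16.9A had 388, 691 and 387 in the control and 81.9, 287 and 620 in the RNAi arrays, of which RNAi replicate 3 lay inside the control range and the others below it (log2 fold change -0.87 ± 0.58, limma adjusted p = 0.514, and -0.15 without RNAi replicate 1). HSP16.9B had a log2 fold change of -0.12 and HSP16.6 one of -0.91 ± 0.43 (limma adjusted p = 0.355), both with overlapping groups. The probes of HSP16.6 were dim, with 29.2 to 79.2 in the control arrays and 8.72 to 32.3 in the RNAi arrays.

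Among the small heat shock proteins as a class, 2 of 17 tested members fell, 15 did not pass and 0 rose (4 had an unadjusted limma p under 0.05, as had 15.6% of all tested probe sets), and the log2 fold changes ran from -3.32 (HSP17.4) to 0.79 (HSP26.7) around a median of -0.32. After HSP17.4 and HSP18.1 the smallest p belonged to HSP18.8. That gene had 17242, 18541 and 17833 in the control and 12584, 13531 and 17044 in the RNAi arrays. The shift was small and the groups lay just apart (log2 fold change -0.32 ± 0.12, limma adjusted p = 0.229). The name of its probe set marks it as reading several genes. HSP24.1, a mitochondrial member, had 769, 537 and 517 in the control and 78, 564 and 617 in the RNAi arrays. RNAi replicates 2 and 3 were inside the control range, and the log2 fold change of -0.91 became -0.02 without RNAi replicate 1. HSP16.0 had 453, 371 and 279 in the control and 54.6, 217 and 376 in the RNAi arrays, again with only replicate 1 far below (log2 fold change -1.02, and -0.32 without RNAi replicate 1).

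The higher means belonged to HSP26.7, HSP18.6 and HSP26.2, none past the threshold. HSP26.7, a chloroplast member, was dim, with 24.2, 6.93 and 64 in the control and 54, 37.4 and 85.5 in the RNAi arrays (log2 change 0.79 ± 0.49, limma adjusted p = 0.486). HSP18.6 had 173, 134 and 100.4 in the control and 224, 127 and 297 in the RNAi arrays (log2 change 0.57, limma adjusted p = 0.442). A second tested probe set of HSP18.6 had 0.33. The probe sets used for HSP18.6, HSP26.2 and HSP18.0 are marked as reading several genes. HSP18.0 was at 1014 to 1075 in the control and 980 to 1052 in the RNAi arrays, and HSP22.3 had a log2 fold change of -0.16. HSP23.2 had a mean of 82.4 ± 17.2 (SD, n = 3) in the control and of 57.1 ± 36.4 in the RNAi arrays, which overlapped (log2 fold change -0.56, and -0.09 without RNAi replicate 1). HSP17.8 and HSP21.9 were below the filter, with group means of 19.4 to 27.6, and were not tested.

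**Figure D2:**
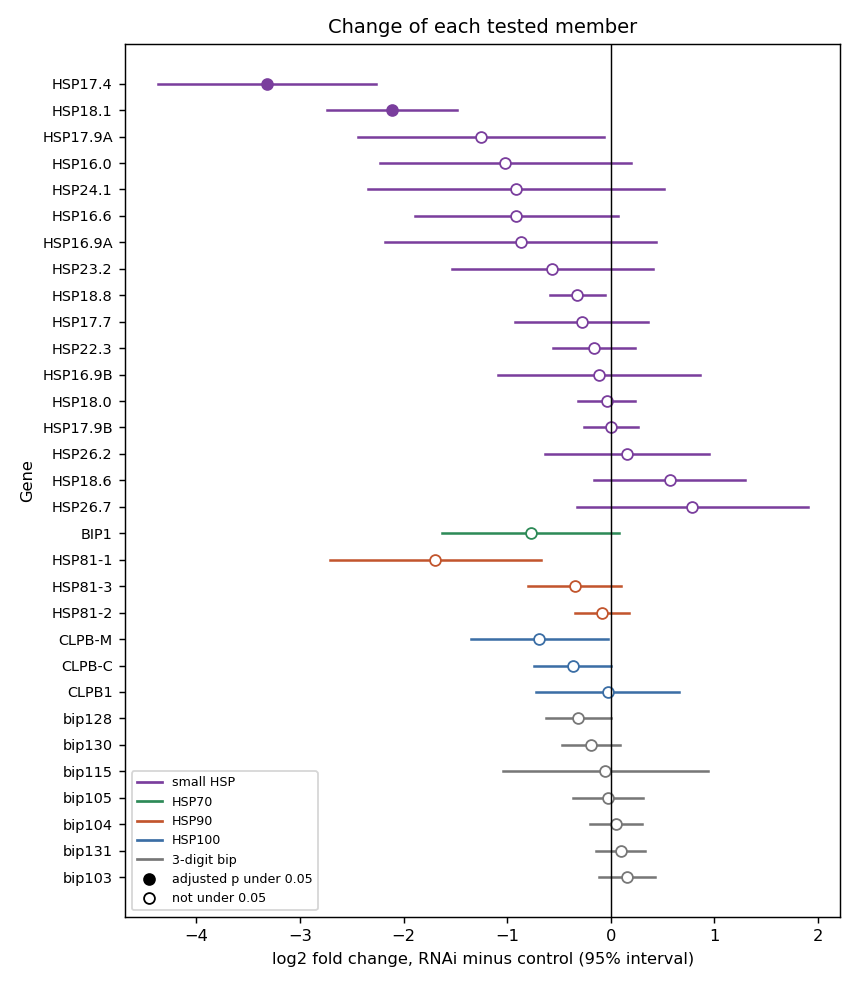
Log2 fold change (RNAi minus control, horizontal axis) of the 31 tested genes with 95% intervals from limma, coloured by size class, with genes named like bip103 in grey; filled points have an adjusted p under 0.05. HSP17.4 and HSP18.1 are the filled points, at -3.32 and -2.11.

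HSP90 proteins mature signalling proteins such as kinases and immune receptors. None of the 3 cytosolic HSP90 genes passed (1 had an unadjusted limma p under 0.05, against 15.6% of all tested probe sets). HSP81-1, also named HSP82, had 8227, 6757 and 6407 in the control and 881, 3312 and 3537 in the RNAi arrays. Every RNAi array was below every control array, with RNAi replicate 1 far below the other RNAi arrays. The log2 fold change was -1.69 ± 0.45 (95% interval -2.71 to -0.67, limma adjusted p = 0.107), and without RNAi replicate 1 it was -1.05, with a limma adjusted p of 0.00446. A dimmer probe set of HSP81-1 had 390, 380 and 388 in the control and 160, 287 and 411 in the RNAi arrays, which overlapped (log2 fold change -0.50, limma adjusted p = 0.455).

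HSP81-2 and HSP81-3 lie with 2 genes between them in the assembly. Whether their change differed from that of HSP81-1 was not tested. HSP81-2 had 13165, 12211 and 12731 in the control and 10080, 13341 and 12759 in the RNAi arrays, which overlapped (log2 fold change -0.08, 95% interval -0.35 to 0.18). HSP81-3 had 20160, 17132 and 21970 in the control and 10857, 19154 and 17593 in the RNAi arrays (log2 change -0.35 ± 0.20, limma adjusted p = 0.443, and -0.098 without RNAi replicate 1). Its further tested probe sets had log2 fold changes of -0.38, 0.05 and 0.40, so they did not share a direction. The probe set used for HSP81-3 is marked as reading several genes.

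BiP is the HSP70 of the endoplasmic reticulum, where it binds proteins entering the secretory pathway. BIP1 had 2600, 2643 and 2710 in the control arrays, a narrow range, and 721, 2254 and 2245 in the RNAi arrays. All RNAi values were lower, those of replicates 2 and 3 slightly and that of RNAi replicate 1 by far, and the log2 fold change of -0.78 ± 0.38 did not pass (95% interval -1.63 to 0.08, limma adjusted p = 0.369). It was -0.24 without RNAi replicate 1 (limma adjusted p = 0.262). BIP4 was at 1.72 to 7.39 in all arrays, below the filter, and BIP2 and BIP3 have no probe set.

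The HSP100 genes did not pass (1 of 3 had an unadjusted limma p under 0.05, against 15.6% of all). CLPB-M, the mitochondrial form, had 201, 159 and 170 in the control and 65.2, 153 and 107 in the RNAi arrays, which lay just apart (log2 fold change -0.69 ± 0.29, limma adjusted p = 0.302, and -0.41 without RNAi replicate 1). The only probe set of CLPB-M is marked as reading several genes. CLPB-C, the chloroplast form, had 2973, 2682 and 3065 in the control and 1779, 2275 and 2787 in the RNAi arrays, with RNAi replicate 3 inside the control range (log2 fold change -0.37 ± 0.16, limma adjusted p = 0.325, and -0.20 without RNAi replicate 1). CLPB1, the cytosolic HSP101 that heat tolerance of plants depends on, had 187, 89.1 and 150 in the control and 99.4, 142 and 167 in the RNAi arrays. Its groups overlapped fully, and the 95% interval of the log2 difference, -0.72 to 0.66, leaves room for a change in either direction.

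RNAi replicate 1 was the lowest of all 6 arrays at 17 of the 24 tested genes of the size classes (70.8%), and at 23.8% of all tested probe sets. By class this was 11 of 17 small heat shock proteins, all 3 HSP90 genes, BIP1 and 2 of 3 HSP100 genes. RNAi replicate 3 was the lowest at none of the 24. The median of the 24 genes, measured from the control mean, was -0.69 in RNAi replicate 1, -0.26 in RNAi replicate 2 and -0.05 in RNAi replicate 3, whereas over all tested probe sets it was 0.01, 0.06 and 0.05. The spread between arrays was larger in the RNAi group than in the control group at 19 of the 24 genes, and at 56.8% of all tested probe sets. Without RNAi replicate 1 the means of 17 of the 24 were lower (43.6% of all tested probe sets), their median log2 fold change was -0.12, and HSP17.4, HSP18.1 and HSP81-1 passed. HSP17.4 and HSP18.1 passed whichever array was left out, with limma adjusted p from 0.00402 to 0.0437 and from 0.00384 to 0.0417.

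**Figure D3:**
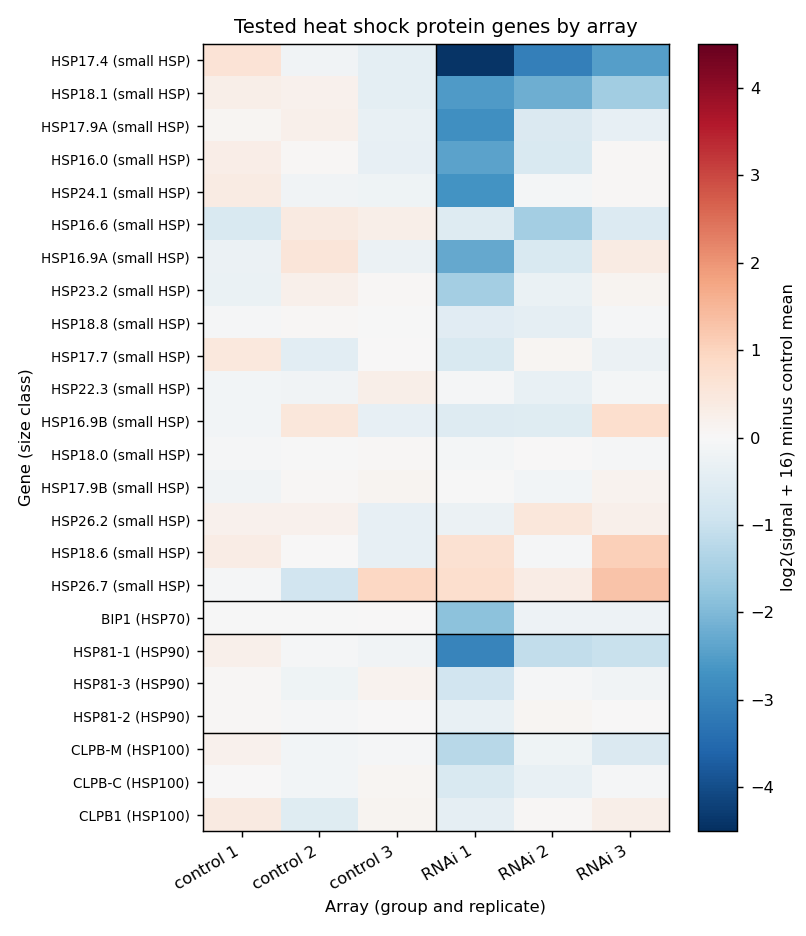
Log2(signal + 16) minus the control mean (colour) for the 24 tested genes of the 4 size classes (rows, sorted within class by the mean of the RNAi arrays) in each array (columns). HSP17.4 and HSP18.1 are low in all 3 RNAi arrays, while HSP24.1, at -2.71, -0.08 and 0.04, and BIP1, at -1.86, -0.23 and -0.24, are low mainly in RNAi replicate 1.

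**Figure D4:**
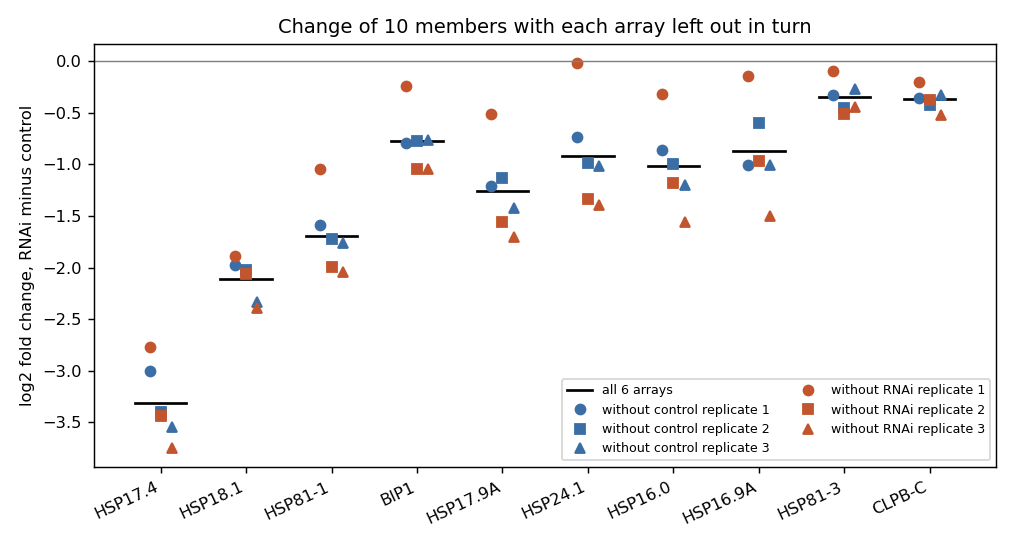
Log2 fold change (RNAi minus control, vertical axis) of 10 members with all arrays (black line) and with each array left out in turn (points; colour gives the group and shape the number of the array left out). HSP17.4 stays between -3.74 and -2.77, while HSP24.1 runs from -1.39 to -0.02 and BIP1 from -1.05 to -0.24, each nearest 0 without RNAi replicate 1.

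The 8 genes with names like bip103 met the naming rule, but where the table gives another name it is not that of a chaperone of protein folding. One, bip104, is also named SSRP1-A, after a subunit of the histone chaperone FACT. Another, bip105, is also named OsC3H13, of the CCCH zinc finger family, and BIP119 is also named BKI1, a regulator of the brassinosteroid receptor known from Arabidopsis. These genes are therefore counted apart from BiP. Of the 7 that were tested 0 passed (1 with an unadjusted limma p under 0.05, against 15.6% of all), none had groups apart, and the median log2 fold change was -0.03, with a range from -0.31 (bip128) to 0.15 (bip103). The gene bip128 had 1413, 1597 and 1632 in the control and 1423, 1136 and 1179 in the RNAi arrays (limma adjusted p = 0.319). The values of bip103 were 4346, 4464 and 5063 in the control and 5849, 4771 and 4832 in the RNAi arrays, and bip130 went from 8506 to 9706 in the control to 6822 to 8901 in the RNAi arrays. Both overlapped. RNAi replicate 1 was the lowest of the 6 arrays at 2 of the 7.

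Heat shock factors bind the promoters of heat shock protein genes and switch them on (class A) or lack the activation domain of class A (classes B and C). Of 17 tested factors 1 rose, 1 fell and 15 did not pass, and 6 of the 17 had an unadjusted limma p under 0.05, against 15.6% of all tested probe sets. HSFA2B, HSFA2A and HSFB2B were below the filter and not tested. HSFA2B was at 1.70 to 5.36 in the control and 37.5 to 47.8 in the RNAi arrays. HSFA2A was at 32.3 to 72.0 and 5.43 to 26.3, but its dimmer probe sets overlapped. HSFB2B overlapped, at 4.05 to 28.9 and 3.65 to 25.6. HSFA4D, mutated in the spotted leaf mutant spl7, had 1086, 1032 and 697 in the control and 171, 291 and 270 in the RNAi arrays, well apart (log2 fold change -1.88 ± 0.25, limma adjusted p = 0.00573). The gene that rose carries the name HSFA2C but also ARD1, a methionine salvage enzyme, and its second probe set had a log2 fold change of -0.17, so which product was read is not settled. The same holds for HSFA2D, also listed as ARD2. The probe set used for HSFA2D overlapped (log2 fold change -0.12), and a dimmer one had groups apart (-0.71, limma adjusted p = 0.209). HSFA1, HSFA9, HSFA2D and the untested factors were picked out after their values were seen. HSFA1 had 1952, 2088 and 2137 in the control and 3686, 3053 and 2763 in the RNAi arrays, with groups apart and a log2 fold change of 0.61 ± 0.13 that missed the threshold (limma adjusted p = 0.0567). It passed under 2 of 16 alternatives, among them quantile normalization (limma adjusted p = 0.0474). With 1 array left out it passed in 0 of 6 fits (limma adjusted p 0.0544 to 0.213). HSFA9 had 5411, 5452 and 5032 in the control and 4350, 3943 and 3649 in the RNAi arrays (log2 change -0.41, limma adjusted p = 0.0968, and 0.0396 without RNAi replicate 1). With 1 array left out HSFA9 passed in only that 1 of 6 fits (limma adjusted p 0.0396 to 0.334). The groups lay apart at 6 of the 17 factors, 4 lower and 2 higher, where 9.88% of all tested probe sets were lower and 12.5% higher without overlap. RNAi replicate 1 was the lowest of the 6 arrays at 6 of these 17.

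Folding factors of the endoplasmic reticulum work beside BiP: J-domain proteins (ERdj) bring it substrates, protein disulfide isomerases (PDIL) join cysteines and calreticulin holds glycoproteins. None of 16 tested genes passed (2 had an unadjusted limma p under 0.05, where 15.6% of all tested probe sets had), with 9 means lower, 7 higher and a median log2 fold change of -0.07. PDIL1-3 had 97.4, 58.6 and 50.3 in the control and 32.3, 22.7 and 37.2 in the RNAi arrays, apart and all dim (log2 fold change -0.83, limma adjusted p = 0.277). ERDJ2 had 832, 866 and 748 in the control and 1117, 1093 and 1002 in the RNAi arrays, apart and higher (log2 fold change 0.39, limma adjusted p = 0.206). RNAi replicate 1 was the lowest of the 6 arrays at 7 of the 16 genes, against 23.8% of all tested probe sets, and the highest at 3. The calreticulin gene CRT1 and PDIL5-1, picked out after their values were seen, were low in RNAi replicate 1 alone, as BIP1 mainly was. Others were highest there, such as PDIL7-1 and PDIL6-1. PDIL5-1 here is Entrez gene 4347226, also listed as PDIL2-3, since PDIL6-1 carries the name PDIL5-1 too. CRT1 had 8002, 8570 and 9488 in the control and 3625, 10992 and 9986 in the RNAi arrays. PDIL5-1 had 1412, 1222 and 1134 in the control and 411, 1454 and 1395 in the RNAi arrays. Without RNAi replicate 1 both values turned positive, 0.27 for CRT1 and 0.19 for PDIL5-1, and the median of the 16 genes was 0.10.

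Of the co-chaperones searched for by name, SGT1, RAR1 and HIP1 were found, and 0 of 3 passed (0 with an unadjusted limma p under 0.05). SGT1, which works with HSP90 in disease resistance, had 10518, 9735 and 8775 in the control and 6975, 10020 and 9127 in the RNAi arrays, with RNAi replicate 1 below the rest (log2 fold change -0.16, limma adjusted p = 0.621, and -0.013 without RNAi replicate 1). HIP1, matched by name alone, had 3585, 5133 and 5053 in the control and 4375, 3862 and 3521 in the RNAi arrays, which overlapped (log2 fold change -0.21). RAR1, a partner of SGT1, had a log2 fold change of 0.12.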

How the data were processed

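The authors deposited a linear intensity for each probe set of each array; the submitters' processing notes name GCOS 1.2. How probes were summarised and arrays scaled is not stated in those notes or labels. Deposited scanner and fluidics records hold other settings and were read only for hybridization entry, fluidics module and scan order. The trimmed mean (2% off each end) differed between arrays (500.1 for control replicate 3, 99.86 to 117.8 otherwise), so each was scaled to 500, 16 was added and log2 taken, which understates changes of dim genes. The array holds 57381 probe sets. Dropping 123 controls and 64 reporters, and then the dimmer 50% (mean of the 6 log2 values), left 28597, the dimmest at 5.70. Groups came from the titles. The test was limma 3.58.1, run in R 4.3.3 with eBayes and its trend option (Benjamini-Hochberg adjusted two-sided p and a threshold of 0.05). It was also run on simulated data with independent noise at each probe set, which held no array that was low across many genes. The submitters name SAM, which was run as an alternative with its median false calls over 20 label permutations.

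Probe sets were named through the platform annotation and a RefSeq gene table (assembly ASM3414082v1, a japonica rice), used only for names and neighbours. The annotation is by gene ID, and all 17905 annotated genes were found in the table. Each gene went by its probe set of highest mean signal. Values in every array were to be given for genes past the threshold and the 3 smallest p of each class (2 of each other list), and others by range. Further genes were added after their values were seen. A MADS-box gene that shares the name RAG was left out of the seed markers. Members and lists were chosen with earlier results of these data known. A planned promoter search was not run, since no sequences were used here. No detection calls were used. The number of arrays limits the precision.

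Arrays with the same number were not paired: the correlation of their deviations from the group means was -0.05, 0.01 and 0.00 for numbers 1 to 3.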

Additional observations from a re-analysis of the deposited data

How the results depend on the processing

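The fall of HSP17.4 passed under all alternatives run. That of HSP18.1 passed under all but 1: on the signals as deposited it had a log2 fold change of -2.62 with an adjusted p of 0.572. On those unscaled signals, where the median of all tested probe sets was -0.52, 1 of the members, 0 of the heat shock factors and other folding factors and 37 probe sets in all passed. Over all probe sets 601 passed in the main test, 394 with no filter and 303 without the trend in eBayes, and leaving out 1 array gave 233 (without control replicate 2) to 902 (without RNAi replicate 1). Calls that were higher in RNAi made up 51.9%, and 64.9% as deposited, 61.4% without the trend, 70.8% without control replicate 2 and 42.7% with 1 probe set per annotated gene. With the replicate block 424 probe sets, 2 members and 2 other factors passed. Members called numbered 2 to 3 when 1 array was left out, the third being HSP81-1 without RNAi replicate 1.

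Of the genes that passed, only HSFA2C had a value of the other sign, that of its second probe set (-0.17). On the signals as deposited the sign turned for bip104 (-0.58), bip131 (-0.54), bip103 (-0.48), HSP18.6 (-0.038), HSP26.7 (-0.093), HSP26.2 (-0.20), HSFA1 (-0.030) and ERDJ2 (-0.24). Quantile normalization turned HSP17.9B (0.067), and the next probe set of the gene turned HSP81-3 (0.050) and bip115 (0.25). Leaving out 1 array gave ranges across 0 for HSP17.9B (-0.078 to 0.062), HSP16.9B (-0.55 to 0.13), HSP26.2 (-0.024 to 0.37), CLPB1 (-0.30 to 0.18), HSP81-2 (-0.16 to 0.039), bip115 (-0.41 to 0.37), bip104 (-0.024 to 0.10), bip105 (-0.15 to 0.076), CRT1 (-0.52 to 0.27) and PDIL5-1 (-0.71 to 0.19). The cause was not tested. With 3 arrays a group and no detection calls, dim members such as HSP16.6, HSP26.7 and HSP26.2 have wide intervals, and their log2 fold changes move with the value added to each signal (HSP26.7 had 1.27 with 1 added and 0.39 with 64 added).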
